A study of Arabidopsis thaliana with 88 samples.

Results

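Accession 10012 is one of 32 natural inbred lines of Arabidopsis thaliana whose leaf DNA was profiled by bisulfite sequencing, and it contributed 3 of the 88 libraries. It was chosen by its low CHG and CHH class levels in these same tables, so those levels and the loci behind them are given as descriptions, without tests. The accession was set against the other 31 accessions (85 libraries), each taken as the mean of its libraries. The study asked how silencing varies among accessions at lncRNA loci, which are transcribed into long RNAs that encode no protein. All plants, 10012 included, were untreated and grew on soil at 21 °C with 16 h of light and 8 h of dark, and mature leaves were taken at about the 14-leaf stage. The 3 libraries of 10012 came from growth rounds 1, 3 and 4, in each of which leaves of 2 to 3 plants were pooled. The accession is a single line, so its 3 libraries measure growth and library variation and not variation among lines. The labels give only its number, no further genotype.

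Plant cytosines are methylated before a G (CG), or in CHG and CHH, in which H stands for A, C or T. CG methylation is copied at replication by the methyltransferase MET1. CHG methylation is kept by CMT3 together with the histone methyltransferase SUVH4 (also called KYP), which writes histone H3 lysine 9 methylation. CHH methylation at long heterochromatic transposable elements (TEs) is set mainly by CMT2, which needs the remodeller DDM1, while RNA-directed DNA methylation (RdDM), through DRM2 and small RNAs, acts at short TEs and TE edges. The deposited values were methylation levels per locus, the fraction of methylated cytosine, given here in percent. They carried no read counts, and depth is therefore unknown. A region with a CHH value of exactly 1 was read as having no data, an inference from the values. In CHG, a CHG value of exactly 1 was also read as no data. In CG, a value of exactly 1 was kept as a level where CHH had data, unless the locus stayed at 1 throughout.

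The low non-CG methylation of 10012 was spread over all classes of loci. In the gene bodies of 2485 TE genes, the transposon-encoded genes of the Araport11 annotation, the CHG level of 10012 was 28.2%, 27.6% and 28.0% in rounds 1, 3 and 4. The other 31 accessions ran from 27.5% to 40.8% with a median of 34.4%, so only accession 6244, at 27.5%, lay lower, and 2 of the 85 other libraries fell below the highest library of 10012. The mean of 10012 was 6.65 percentage points, or 19.2%, below the mean of the 31 (34.6% ± 3.36, SD over 31 accessions). The CHH level of 2619 TE genes was 5.27%, 5.35% and 5.19%, against 5.87% to 8.98% with a median of 7.11% in the others. No library of another accession reached the range of 10012, whose CHH mean was 26.9% below the 7.21% ± 0.863 of the others, a difference of -1.94 points. With values of exactly 1 taken as levels instead, the difference was 0.734 points, of opposite sign. The CG level of the same class was 72.6%, 72.3% and 73.3%, inside the others' range of 67.0% to 80.4%. It ranked 7 of 32 from the lowest and was 3.22% below the mean of the others.

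TE fragments, the individual annotated copies of transposons, gave the same order of contexts. Their CHG level in 10012 was 12.6%, 12.8% and 12.6%, below every other accession (13.5% to 19.8%, median 16.3%) and every other library. Their CHH level was 3.63%, 3.91% and 3.71% in 10012. The other accessions spanned 3.76% to 5.94% with a median of 4.57%, and 7 other libraries lay below the highest library of 10012, so the CHH groups overlapped. CG at TE fragments ranked 7 of 32, at 48.0% in 10012 and 49.6% ± 2.42 in the others. The CHG difference of -3.52 points was -0.243 points by the median over fragments and -0.269 with values of exactly 1 taken as levels. The CHH difference of -0.850 points was then 1.44, of opposite sign.

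Intergenic lncRNA loci, which lie outside protein-coding genes and TE genes, had the largest relative CHG deficit among gene bodies. Their CHG level was 7.08%, 6.95% and 7.01% in 10012 and 7.69% to 12.1% in the others (median 10.2%), a deficit of 30.01%, with no other library as low. At 531 such loci over a TE fragment the CHG level was 12.7% in 10012 and 17.6% ± 2.00 in the others, a ratio of 0.720. At 1027 loci over no TE fragment it was 4.18% and 6.19% ± 0.760, a ratio of 0.674. Both subsets ranked lowest of 32 in CHG and in CHH, so low values were also seen at lncRNA loci without an annotated TE. The CHH level over the whole class was 2.29%, 2.15% and 2.21%, against a median of 2.96% in the others, and again no other library was as low. CG over the class ranked 4 of 32, at 27.7% against 30.3% ± 1.97. With complete data required in all libraries, the CHG difference of -3.01 points was -1.71, and it was 0 when the median over loci was taken. With values of exactly 1 taken as levels, the CHH difference of -0.729 points was 0.365, of opposite sign.

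Protein-coding genes and antisense lncRNA loci, which carry little non-CG methylation, were low in CHG by similar shares. Gene bodies of protein-coding genes had 1.13%, 1.09% and 1.09% CHG in 10012, with a range of 1.12% to 1.75% in the others, and antisense loci had 1.03%, 1.04% and 1.0% with a range of 1.04% to 1.59%. CHH in these classes was nearer to the others: it ranked 2 of 32 in both gene-body sets, and 12 other libraries lay below the highest library of 10012 in each. CG gene-body methylation ranked 3 of 32 in protein-coding genes, at 11.5% against 13.8% ± 2.48. Its relative deficit of 16.4% was larger than at TEs.

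Over 6 classes of loci, each in the gene body and in a 400 bp window around the start, CHG in 10012 was the lowest of 32 accessions in 9 of 12 sets and second lowest in the other 3. The deficit ran from 19.2% to 30.9% of the others' mean. CHH was lowest in 7 sets and second lowest in 3, with deficits of 9.09% to 30.3%. CG ranked between 3 and 12, with deficits of 3.08% to 16.7%. In units of the SD among the 31 accession means, the distance of 10012 was between -2.62 and -1.96 in CHG, -2.52 and -1.53 in CHH, and -1.45 and -0.521 in CG. The accession thus sat at the low end of a continuous range in CHG and CHH.

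**Figure D1:**
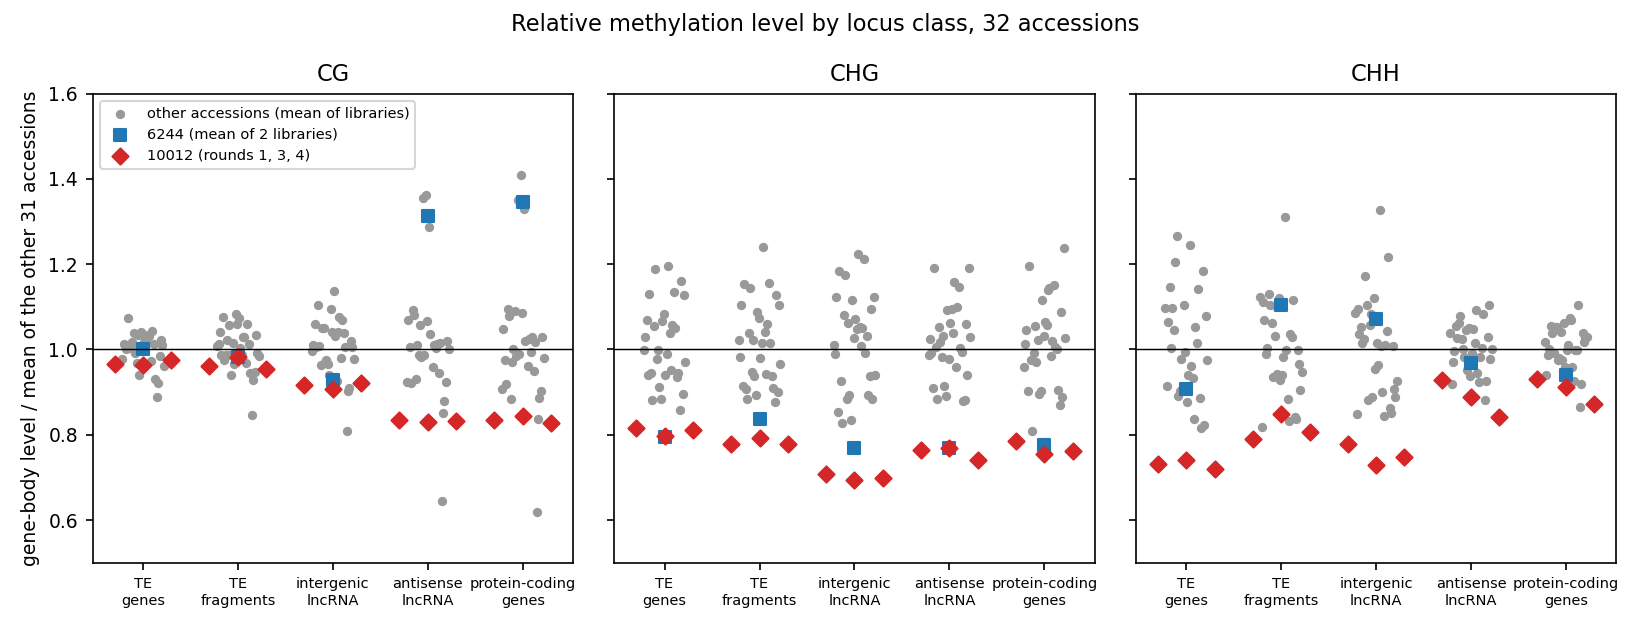
Gene-body level of each accession divided by the mean of the 31 accessions other than itself, by class of loci, for CG, CHG and CHH. Grey points are means over the libraries of an accession, the blue square is 6244 and the 3 red diamonds are the libraries of 10012, which lie at or near the bottom in CHG in all 5 classes shown and in CHH at TEs and intergenic lncRNA loci, while CG at TEs lies inside the range.

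The deficit was present in each growth round. For CHG at TE genes, the difference of 10012 from the mean of the other libraries of the round was -7.51 points in round 1 (18 others), -6.36 in round 3 (25) and -6.60 in round 4 (24), with 0, 1 and 1 of those libraries lower. For CHH the differences were -2.18, -1.99 and -1.97 points, with no other library lower in any of the 3 rounds. Among library measures, the share of TE genes without data was 22.1% in 10012 (rank 30 of 32 from the lowest; median of the others 20.4%), and the share of TE genes with a CHH value of exactly 0 was 10.7% (second highest of 32; median 8.14%). The CHH level of protein-coding genes over no TE fragment was 0.523% in 10012 and 0.566% ± 0.0267 in the others. The part of these measures in the low levels was not tested.

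Length separated the contexts in TE fragments. In CHG, 10012 reached 0.748 of the mean of the others at fragments under 500 bp (4405 loci), 0.757 from 500 to under 1000 bp, 0.780 from there to under 2000 bp, 0.792 from 2000 to under 4000 bp and 0.834 at 4000 bp or more (953 loci). The relative CHG deficit was thus deepest at short fragments, and 10012 ranked lowest of 32 in each class but the longest, where it was second. In points the CHG deficit was larger at long fragments. Over fragments with values in all 3 libraries of 10012, the mean difference was -2.17 points under 500 bp and -6.32 at 4000 bp or more. The mean of 10012 was lowest of 32 at 0.739% and 8.21% of them, and at 1.17% of all Araport11 gene bodies. In CHH the ratio fell with length, from 0.852 to 0.824, 0.787, 0.770 and 0.748. Its rank fell with length from 4 and 3 of 32 in the shortest classes to the lowest in the 3 classes from 1000 bp upward.

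At fragments under 500 bp the CHH levels of 10012 were 3.10%, 3.34% and 3.16% against 3.76% ± 0.429, and 14 other libraries lay below its highest. At fragments of 4000 bp or more they were 6.35%, 6.73% and 6.34% against 8.65% ± 0.987, and no other library was as low. The CHG level at the longest fragments was 32.7%, 31.9% and 32.4% against 38.7% ± 3.35. Other accessions also changed with length. The longest-minus-shortest ratio of 10012 was 0.0858 in CHG, rank 31 of 32 from the lowest, and -0.103 in CHH, rank 6 of 32. In the others it ran from -0.111 to 0.101 in CHG and from -0.215 to 0.209 in CHH, so both slopes lay inside the range of the other accessions. With values of exactly 1 taken as levels, the CHG slope was -0.119, of opposite sign.

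**Figure D2:**
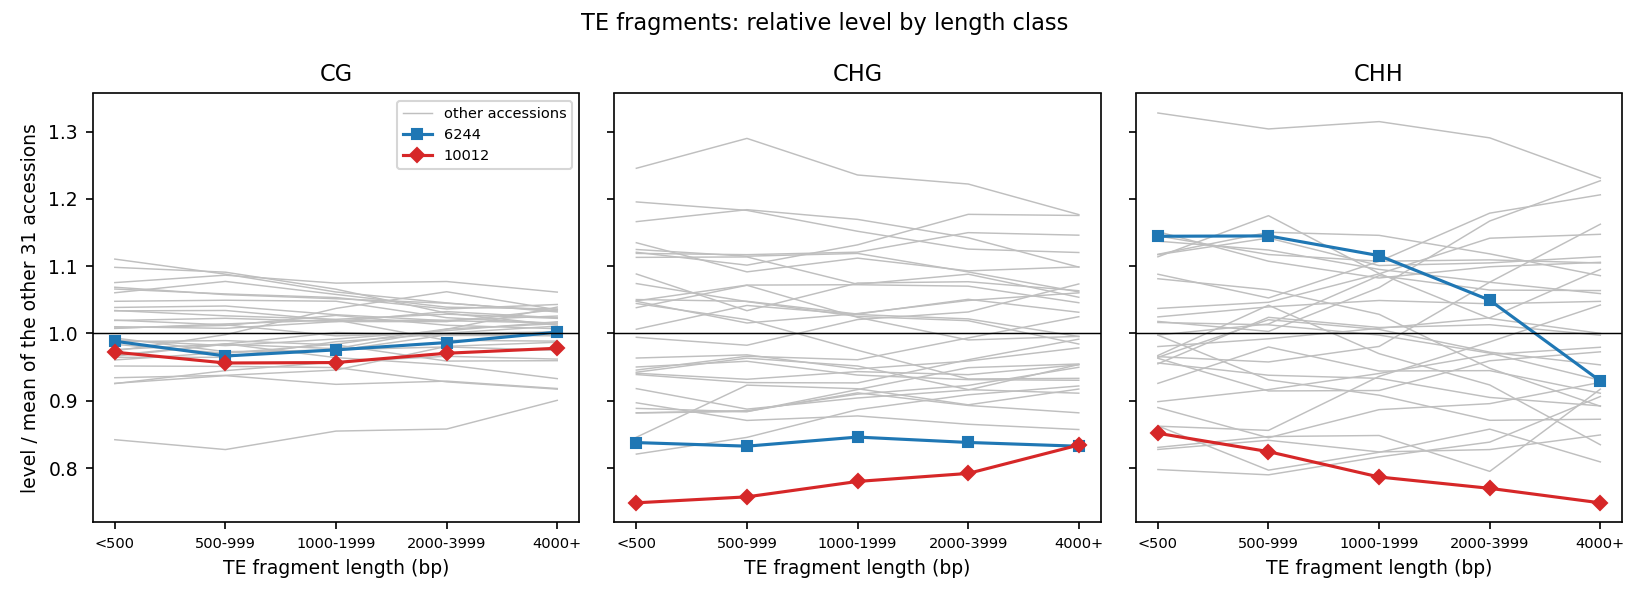
Level of each accession at TE fragments divided by the mean of the 31 accessions other than itself, by length class of the fragment in bp, for CG, CHG and CHH. The red line of 10012 rises in CHG from 0.748 to 0.834 and falls in CHH from 0.852 to 0.748; the blue line of 6244 stays near 0.84 in CHG and falls below 1 in CHH only at the longest fragments.

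Where fragments of like level were set side by side, the CHH slope was seen in means and not in medians. Among fragments at 10% to 20% CHH in the others, the ratio of mean levels was 0.897 under 500 bp (431 loci) and 0.739 at 4000 bp or more (290 loci), but the median of the single-fragment ratios was 0.741 and 0.75. At 5% to 10% CHH the ratio of means was 0.811 and 0.737 and the median ratio 0.610 and 0.718, and at 2% to 5% they were 0.746 and 0.681, and 0.401 and 0.645. In CHG the ratio of means rose from 0.741 (502 loci) to 0.815 (326 loci) among fragments at 20% to 40%. It was nearly flat at 40% to 60%, at 0.826 and 0.843, and ran the other way at 10% to 20%, at 0.782 and 0.765, the latter from 28 loci. The median CHG ratio was higher at the longest than at the shortest fragments in these 3 ranges.

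Fragments that lie outside TE genes kept the CHH slope, with ratios of 0.873, 0.839, 0.793, 0.806 and 0.626, the last from 47 loci. Their CHG ratio was nearly flat, at 0.746, 0.752, 0.762, 0.742 and 0.730, the last from 44 loci, so the CHG slope was not seen outside TE genes. TE genes themselves showed no steady change with length: their CHG ratios were 0.768, 0.764, 0.806, 0.821 and 0.816 and their CHH ratios 0.684, 0.723, 0.776, 0.721 and 0.717 from the shortest to the longest class.

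CHH in 10012 differed more by position than CHG. In 100 kb windows with at least 50% of their length in TEs, which in this genome lie mostly around the centromeres, the CHH level of TE fragments was 4.79% in 10012 and 6.21% ± 0.706 in the others, a ratio of 0.772 and the lowest of 32. In the remaining, TE-poor windows it was 3.25% and 3.8% ± 0.479, a ratio of 0.855 and rank 7 of 32. CHG was lowest of 32 in both kinds of window, with ratios of 0.802 and 0.768. Short fragments in TE-poor windows were nearest to the other accessions in CHH. At 6427 fragments under 500 bp there, 10012 had 2.87% against 3.17% ± 0.423 and ranked 8 of 32. At 2184 short fragments in TE-dense windows it had 4.24% against 5.50% ± 0.616 and ranked lowest. Chromosome by chromosome, the CHH ratio of TE genes ran from 0.665 on chromosome 1 to 0.776 on chromosome 5, and 10012 was lowest of 32 on all 5. Its CHG ratio ran from 0.786 on chromosome 1 to 0.834 on chromosome 3.

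The share of the missing methylation held by long fragments depended on how loci were weighted. Fragments of 4000 bp or more were 9.18% of those that could be counted in CHG and 46.4% of their length. They carried 59.0% of the deficit summed over length, and 17.9% with each fragment counted equally. In CHH they were 6.38% of fragments and 41.7% of the length, and carried 60.1% of the deficit over length and 17.8% with equal counting. Fragments inside TE genes were 63.3% of the length in CHG and 57.3% in CHH. They held 80.3% and 79.6% of the deficit over length, and 50.3% and 47.1% with equal counting.

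Accession 6244, the other accession with low CHG, differed from 10012 in CHH. Its CHG level at TE genes was 27.5%, against 27.9% in 10012, and its CHH level there was 6.50%, rank 9 of 32, against 5.27%. At TE fragments under 500 bp its CHH level was 4.26%, above the others' mean of 3.76%, while 10012 had 3.20%. With 2 libraries of 6244 the difference between these accessions was not tested.

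Locus by locus, most TE genes lay modestly below the mean of the others in CHG and CHH. A locus was counted as lowest when the mean of 10012 lay below all other accession means, with values in all 3 of its libraries and in at least 80% of the others. The rule that chose 10012 used these values, so nothing is read from the counts. In CHG, 83.1% of 2189 TE genes lay below the mean of the others, with a median difference of -6.22 points, and 122 (5.57%) were lowest of 32, where 1.17% of all 37567 Araport11 gene bodies were. In CHH, 85.1% of 2296 TE genes lay below, by a median of -1.93 points, and 167 (7.27%) were lowest, against 1.74% of all loci. In CG, 59.5% of TE genes lay below the mean and 65 were lowest (2.83%, against 1.45% of all loci). Below the mean were also 78.2% of TE fragments and 61.3% of protein-coding genes in CHG, and 71.6% and 54.4% in CHH. The tenth of TE genes with the largest deficits held 30.1% of the summed negative difference in CHG and 29.7% in CHH.

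**Figure D3:**
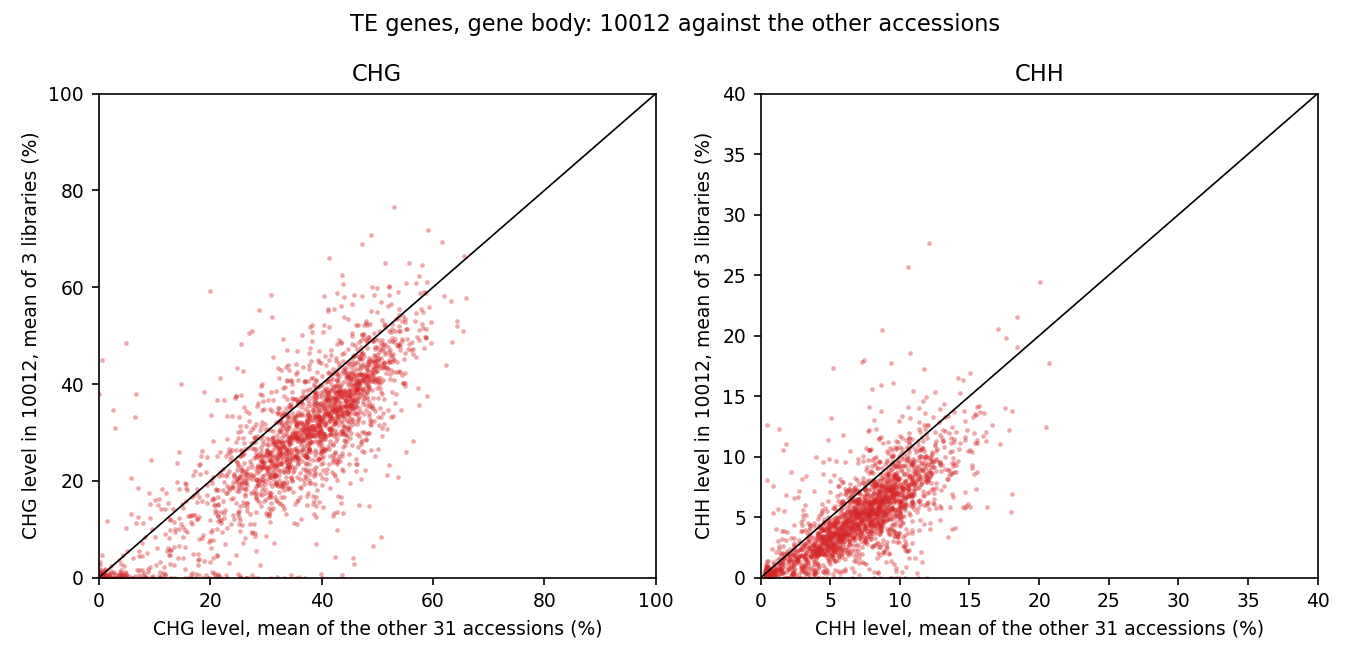
Level of each of 2189 TE genes in 10012 (mean of 3 libraries, vertical axis, %) against the mean of the other 31 accessions (horizontal axis, %), for CHG and CHH, with the line of equality. Most points lie below the line, 83.1% of them in CHG, and a row of points lies at 0 in 10012.

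The count of lowest loci also ranked other accessions high. In CHG, 6244 was lowest at 9.78% of TE genes and 9845, which had 1 library, at 6.90%, so 10012 ranked 3 from the highest. In CHH, 9845 led with 7.45% and 10012 followed with 7.27%. With all 3 libraries of 10012 required to lie below all 85 other libraries, 7 TE genes in CHG and 8 in CHH were left, 0.320% and 0.348% of TE genes, where 0.0426% and 0.0421% of all loci passed this rule.

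**Figure D4:**
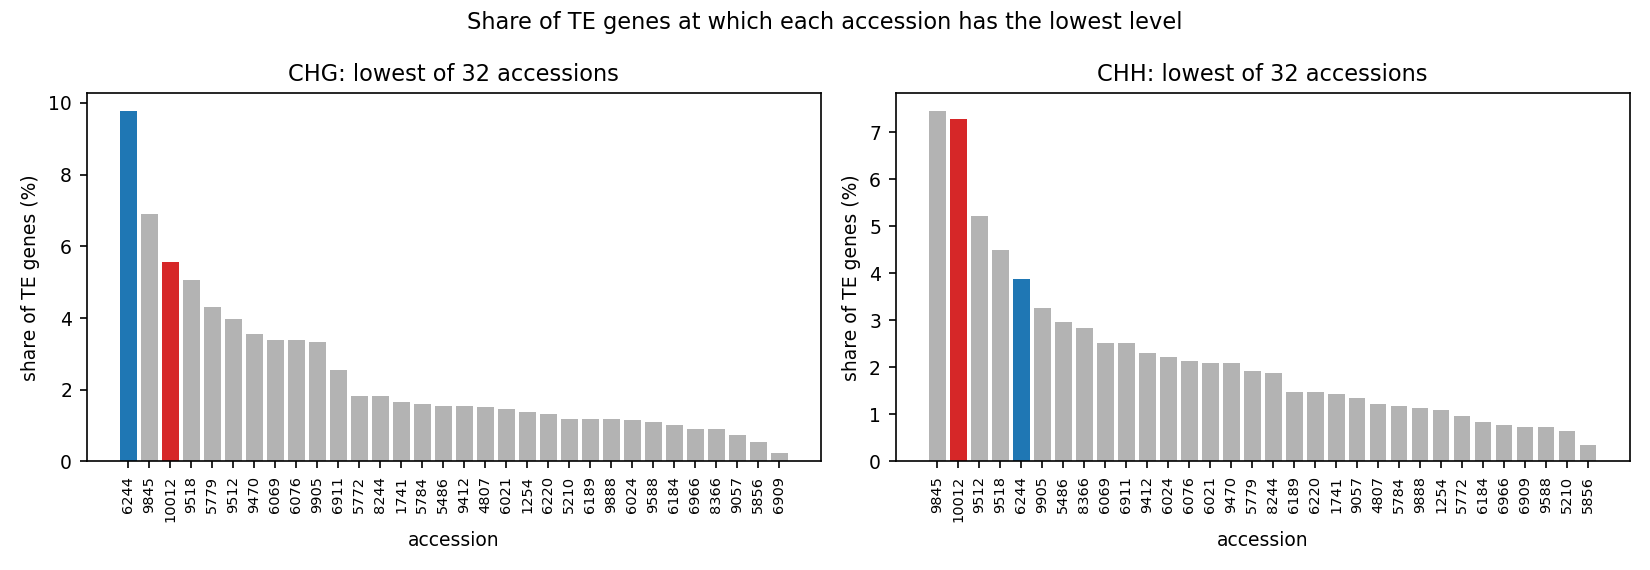
Share of TE genes (%) at which each of the 32 accessions had the lowest mean level, in CHG and CHH, sorted by share. The bar of 10012 (red) is behind 2 others in CHG at 5.57% and second in CHH at 7.27%; 6244 (blue) leads in CHG at 9.78%.

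With a margin of at least 10 points, 111 TE genes were lowest in CHG (0.934% of all loci passed this rule). Of these, 80 (72.1%) had a CG level within 10 points of the mean of the others, and 14 (12.6%) were at least 20 points lower. Over all TE genes compared in CHG, 78.1% were within 10 points in CG and 5.85% at least 20 below. Of 110 TE genes lowest in CHH by at least 3 points (0.826% of all loci), 84 (76.4%) had CG within 10 points and 12 (10.9%) were at least 20 below, against 77.0% and 6.19% of all TE genes compared in CHH. The share with CG near the others was thus no higher than over all TE genes. At TE fragments it was higher. Of 214 fragments lowest in CHG by the same margin, 72.9% had CG within 10 points and 13.1% were at least 20 below. Over all fragments compared in CHG these shares were 65.5% and 9.35%. Of 225 fragments lowest in CHH with a CG value, 76.0% were within 10 points and 6.67% at least 20 below, against 58.7% and 11.1%. The CHH count of 110 was 166 without the accessions with 1 library and 168 without the round 3 library of 10012. At intergenic lncRNA loci 18 passed the CHG rule (0.309% of the loci of the authors' annotation), of which 6 (33.3%) were within 10 points in CG and 6 at least 20 below, against 73.5% and 8.89% of all such loci.

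Without a margin, TE genes lowest in CHG and in CHH overlapped in part. Of 2189 TE genes that could be compared in both contexts, 35 were lowest in both, 28.7% of the 122 lowest in CHG and 21.3% of the 164 lowest in CHH, where 5.57% and 7.49% of all these genes were lowest. The 3 libraries of 10012 were all below the mean of the others at 54.4% of TE genes in CHG and 56.1% in CHH, where 24.5% were in CG. The same share was not computed for other accessions.

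The TE genes with the largest deficits had CHG levels near 0 in 10012. AT2G10760 (chromosome 2, 4231554 to 4235631, TAIR10) had 0%, 0.872% and 0.585% CHG, against 0.337% to 78.4% with a median of 45.8% in the others. Only accession 5856 was lower, and CG there was also low, at 7.68% against 69.1% ± 23.1. AT2G13460 (chromosome 2, 5600307 to 5605593) had 9.52%, 0% and 2.70% CHG against a median of 51.4%, and 0% CG in all 3 libraries against 70.6% ± 18.1. In CHG it ranked 4 of 30 from the lowest, and accession 6189 was at 0%. At both loci CG, CHG and CHH were low together.

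At AT1G13660 (chromosome 1, 4683172 to 4685640) CHG was 0%, 8.33% and 0%, below the others' lowest of 21.4%, and CHH was 0% in all 3 libraries against 11.3% ± 5.87. CG at this gene was 0%, 87.5% and 0%, so its libraries were far apart. AT5G36226 (chromosome 5, 14268571 to 14271006) had 20%, 0% and 0% CHG and 0% CHH throughout, and CG of 57.1%, 0% and 100%. In CHG it ranked 3 of 32 from the lowest, and accession 9412 was at 0%. AT3G43684 (chromosome 3, 15585533 to 15587105) had 0%, 0% and 25% CHG against 36.4% to 64.0%. Values that step from 0 to 100% between libraries of a line leave CG at these 3 genes undetermined.

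In CHH, AT1G29650 (chromosome 1, 10357607 to 10363195) had 3.45%, 5.77% and 11.5%, against 10.3% to 24.2% with a median of 17.9%. The mean of 10012 was the lowest of 32, while CG was 83.3%, 83.3% and 50% against 83.7% ± 3.24. AT1G17277 (chromosome 1, 5915645 to 5916212) had 6.90%, 2.34% and 6.98% CHH against a median of 16.8%, with CG at 87.6% against 86.9% ± 10. Its CHG level of 34.3% stood beside 47.1% ± 16.0, and accession 8366 was lower in CHH, at 4.66%. AT2G14790 (chromosome 2, 6341269 to 6344219) had 0% CHH in all 3 libraries against a median of 14.5%, and accession 6184 was also at 0%. Its CG was 66.7%, 100% and 100% against 86.6% ± 10.3, and CHG had no value in round 1. CHH had a value in that library, where a CHG value of exactly 1 would have been read as no data. At AT1G17277 CHH was low where CG was near that of the other accessions, while CG at AT2G14790 stepped between libraries.

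Among long TE fragments the largest CHG deficits were at AT3TE68090, AT1TE15170 and AT1TE26120. AT1TE26120 (chromosome 1, 8114686 to 8116894) had 0% CHG in all 3 libraries against a median of 45.0%, and CG of 100%, 66.7% and 33.3%. Accession 9845 was also at 0% CHG there. AT3TE68090 (chromosome 3, 16809186 to 16814151) had 20%, 0% and 0% CHG against a median of 57.8%, and accession 6189 was lower, at 0%. AT1TE15170 lies over AT1G13660 and shares its values. The fragment with low levels in all libraries and contexts was AT4TE10600 (chromosome 4, 2286692 to 2288784). Its CHH was 6.78%, 2.56% and 2.44% against 9.0% to 24.5%, its CHG 24.2% against 54.4% ± 7.27, and its CG 41.7% against 84.5% ± 3.89, each the lowest of 32. AT5TE87010 (chromosome 5, 24185814 to 24187902) had 0%, 0% and 1.89% CHH, below the others' lowest of 5.81%. AT5TE32645 (chromosome 5, 9020351 to 9022599) ranked 5 in CHH, at 10.7%, 2.86% and 1.92%.

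Some intergenic lncRNA loci were low in all contexts at once. CUFF_NC.3094 (chromosome 2, 1926751 to 1927319) was at 0% in CG, CHG and CHH in all 3 libraries of 10012. The others had 88.7% ± 16.0 CG, 9.30% to 62.9% CHG with a median of 45.6%, and 9.19% ± 4.81 CHH. CUFF_NC.1542 (chromosome 1, 17278416 to 17279364) was at 0% in CG and CHG against 65.8% ± 30.4 and 31.8% ± 14.6, with CHH at 2.00%, 0% and 0%. CUFF_NC.1635 (chromosome 1, 18164016 to 18164727) had 0% CHG in all 3 libraries, and 2.27%, 0% and 2.22% CHH against 8.64% to 42.7%, with CG at 33.3%, 0% and 0%. CG was higher at CUFF_NC.9956 (chromosome 5, 10527872 to 10528514), at 85.7%, 33.3% and 100%, where CHG was 5.56%, 0% and 0% against a median of 42.8%. CUFF_NC.7418, CUFF_NC.10774 and CUFF_NC.6629 ranked 3, 5 and 5 of the accessions with a value, so other accessions were as low or lower.

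The protein-coding genes with the largest CHG deficits carried CHG in most other accessions and none or almost none in 10012. EPR1 (AT2G27380, extensin proline-rich 1 in RefSeq, a cell wall protein gene; chromosome 2, 11713411 to 11715774) had 0.893%, 0% and 0% CHG against 0.216% to 54.7% with a median of 42.2%. Its CG level was 8.77%, 6.17% and 7.04% against 62.7% ± 18.3. Only 6244 was lower in CHG. AT5G12090 had 0%, 1.85% and 0% CHG against a median of 57.9%, and AT5G51650 and AT4G15245 were at 0% in all 3 libraries against medians of 46.1% and 48.1%. At each of these genes at least 1 other accession was at 0% CHG, and AT4G15245 had a value in 27 accessions. CG at these 3 genes was 0% in 10012 and 67.4% to 75.4% on average in the others. At the promoters of AT2G29920, AT1G56270, AT3G42786 and AT2G24340, CHG was 0% in each library of 10012, and medians of the others ran from 42.2% to 62.0%. At AT2G29920 the others' lowest accession was at 2.50%, whereas at the remaining 3 promoters at least 1 other accession was also at 0%.

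A few TE genes had higher CHG in 10012 than in most others. AT5G13485 (chromosome 5, 4332948 to 4334683) had 45.8%, 44.4% and 45.0% CHG, against 0% to 2.38% in the others, and CG of 76.0%, 82.5% and 79.4% against 4.06% ± 3.8. It had a value in 28 accessions, and 10012 stood above the others in CG, CHG and CHH. AT3G10100 (chromosome 3, 3111779 to 3115437) had 50.6%, 45.0% and 49.6% CHG against a median of 1.72%, the highest of 32, and CG of 87.7% against 8.96% ± 19.3. AT2G15160 (chromosome 2, 6579904 to 6581815) had 53.0%, 53.8% and 71.1% CHG against a median of 15.6%, rank 29 of 30 from the lowest. Its CG level was like that of the others, at 81.2% against 79.6% ± 19.4. In all, 12 TE genes were highest of 32 in CHG by at least 10 points, with 0.261% of all loci passing that rule.

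The genes of the methylation pathways were examined for their own methylation, in lists of 13 maintenance genes (12 measured), 22 RdDM genes and 4 demethylase genes. Sequence and expression of these genes were not part of the data. In CHG, 6 of 12, 14 of 22 and 2 of 4 gene bodies lay below the mean of the others, as did 15754 of 25690 protein-coding genes. The median differences were 0.000961, -0.0595 and -0.109 points, against -0.116 over all protein-coding genes. No gene body on these lists was lowest or highest of 32 by at least 10 points in CHG or 3 points in CHH, and 0.508% of all loci were that high in CHH. CMT3 had 0.594% CHG against 0.611% ± 0.324, and CMT2 0.266% against 0.463% ± 0.208. DRM2, the main methyltransferase of RdDM, had 0%, 1.17% and 0% CHG against 2.73% ± 2.15, the lowest of 32. IBM1, a histone demethylase that keeps CHG methylation out of genes, had 0.275%, 1.39% and 1.0% CHG against 2.53% ± 1.31, rank 5.

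In CG, SHH1, which guides RNA polymerase IV to methylated histone H3 in RdDM, had 12.5%, 10.6% and 15.5% in its gene body against 37.1% ± 10.7. It was the lowest of 32 and the single member of the 3 lists lowest by at least 10 points, a rule that 1.19% of all loci passed. DDM1 had 11.8%, 7.28% and 12.1% CG against 26.4% ± 8.39, rank 3, and MET1 had 5.11% against 14.1% ± 12.8, rank 9. In CG, 11 of 12 maintenance genes lay below the mean of the others, as did 19103 of 25845 protein-coding genes. By at least 10 points, the promoter of SUVH4 was highest in CHG (0%, 0% and 50%) and those of IBM1 (0%, 100% and 0%) and AGO6, an Argonaute of RdDM (33.3%, 0% and 0%), in CG. Each of these calls came from 1 library, and 0.509% of all promoters in CHG and 1.15% in CG passed the rule.

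A last list held 9 loci known to be silenced by methylation, some of them only in some lines. All 9 gene bodies lay below the mean of the others in CHG, with a median difference of -9.14 points, against 15754 of 25690 protein-coding genes with a median of -0.116. Where only some lines methylate a locus, a few high accessions can lift the mean above most others. Protein-coding genes as a whole carry little CHG, so the medians come from unlike levels and nothing is read from their contrast. None of the 9 loci was lowest of 32 by at least 10 points in CHG, as were 26 of all protein-coding genes. In CG, 1 of the 9 gene bodies was, as were 238 of 25845 protein-coding genes. The 3 PAI genes of tryptophan synthesis, known for methylation in lines with an inverted repeat, had 0% to 1.04% CHG in 10012 against means of 14.3% to 16.9%, with SDs of 21.5 to 25.9. Most other accessions were also near 0 at PAI3, where 10012 ranked 19 of 32. These are close copies, between which reads may be shared. QQS, an orphan gene with natural epialleles, had 18.2%, 15.0% and 19.1% CHG against 26.6% ± 12.7, and CG of 75.3% against 68.4% ± 32.6. FWA, an imprinted flowering gene silenced by methylation of repeats at its start, had 94.4%, 97.8% and 85.7% CG in its promoter window against 88.2% ± 5.27. SDC, a gene silenced by non-CG methylation of promoter repeats, had 0% promoter CHG in the 2 libraries with a value, against 46.0% ± 18.4. Its promoter CHH was 0%, 33.3% and 8.33% against 9.28% ± 6.55. CHH thus had a value in all 3 libraries, while a CHG value of exactly 1 would have been read as no data. The 0% may therefore understate CHG at this promoter.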

How the data were processed

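Per the labels' protocols, bisulfite libraries of leaf DNA were made with Tn5 transposase and read as 100 bp pairs. The authors deposited methylation fractions per locus and library in 12 tables (3 contexts, gene body or promoter window, 2 annotations). The build is TAIR10 per the submitters' processing notes. For aligner, caller and level formula, nothing is stated in the sources used here. The fractions come without counts or coverage, and counting error cannot be computed from them. All columns of values were mapped to samples by name, and replicate numbers mark rounds of sowing, per the series' design text, so they pair libraries by round. In CHG at TE genes, 16 of 18 libraries of round 1 and 3 of 26 of round 3 lay above their accession's mean.

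A CHH value of exactly 1 was treated as no data in all contexts and a CHG value of exactly 1 in CHG, while CG loci that stayed at 1 throughout were dropped. Other CG values of exactly 1 were kept as levels, so CG was not treated like CHG and CHH. Some of these CG values may stand for missing data and could raise CG, at named loci and in class levels. The part of this unlike treatment in the contrast of CG with CHG and CHH was not tested. Classes were rebuilt from coordinates with bedtools 2.31.1 (overlap of at least 1 bp) and need not match the authors' own. Class levels are means over loci with a value in at least 80% of libraries, then over an accession's libraries. No test was run for 10012 against the others, because the accession, the loci and the gene lists were chosen with earlier results of these data known. Named loci are those of at least 500 bp with the largest differences in each class (TE fragments of at least 2000 bp), plus the listed genes. Coordinates count from 1, and starts of TE genes may be 1 bp too high, since the tables give them as RefSeq does and protein-coding starts 1 lower. Symbols are those of RefSeq (TAIR10.1). EDM2 was not analysed here. Python 3.11.15, NumPy 2.4.6, pandas 2.3.3 and matplotlib 3.10.9 were used. Alternatives were the values as deposited, stricter and looser data rules, medians, a length minimum, leaving out libraries or accessions, comparison within growth rounds, other margins and other TE covers.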

Additional observations from a re-analysis of the deposited data

How the results depend on the processing

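Leaving out 6909, or each library of 10012 in turn, kept every class difference and length slope in direction. Without 1 library of 10012 the differences ran from -6.78 to -6.47 (CHG, TE genes), -3.59 to -3.48 (CHG, TE fragments), -3.04 to -2.98 (CHG, intergenic lncRNA), -1.98 to -1.90 (CHH, TE genes), -0.928 to -0.790 (CHH, TE fragments) and -0.768 to -0.695 points (CHH, intergenic lncRNA). Within growth rounds (the replicate block) CHG at TE genes was -6.82 points; intergenic lncRNA moved to -3.10 in CHG and TE genes to -2.05 in CHH, and no direction changed. Windows split at 30% or 70% TE cover kept the CHG and CHH contrasts in direction.

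The reading of exact 1 as no data decides the CHH results. With values as deposited, CHH differences were 0.734 (TE genes), 1.44 (TE fragments), 0.365 (intergenic lncRNA) and 0.0371 points (protein-coding genes), and CHG differences -3.25, -0.269 and -1.87 for the first 3 classes. The length slopes were then -0.119 in CHG, reversed, and -0.126 in CHH, and 208 and 235 TE genes were lowest by a margin.

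With a value required in every library the CHG differences were -5.88 (TE genes) and -1.71 (intergenic lncRNA), the CHH differences -1.79 and -0.576, the CHH slope -0.137 and the counts 62 and 66. With any value allowed they were -3.36 (TE fragments) and -3.12 (intergenic lncRNA) in CHG, -0.811 (intergenic lncRNA) in CHH, and -0.0880 for the CHH slope. Medians over loci gave -8.14, -0.243 and 0 in CHG, and -2.13, -0.508 and -0.175 in CHH, for TE genes, TE fragments and intergenic lncRNA, and 0.0110 in CHH for protein-coding genes, a reversal. Regions of at least 500 bp gave -4.14 and -3.35 in CHG and -1.14 and -0.822 in CHH for TE fragments and intergenic lncRNA.

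Counts of TE genes lowest by a margin depended most on the rule. They were 33 at 20 points in CHG and 50 at 5 points in CHH, and 7 and 8 when all 3 libraries had to lie below all others. Without the accessions with 1 library the CHH count was 166. Without 1 library of 10012 the counts ran from 140 to 157 in CHG and 143 to 168 in CHH, the latter without round 3. Against the accessions with at least 3 libraries alone, a choice made after seeing the data, they were 300 and 312. Leaving out accessions eases the call, since fewer have to lie above 10012, so nothing is read from these higher counts. Subtracting the CHH level of genes over no TE fragment, also chosen after seeing the data, left the CHH slope at -0.103. Depth is unknown, so single-locus values of 0 or 100% carry no stated precision.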
